A study of Mus musculus with 26 samples.

Results

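Tissue macrophages are phagocytes that live in the connective tissue of most organs, and the 10 genes described here are widely used to recognise them in mice. They were chosen by name from a table of gene expression in mouse tongue, and all 10 were found among its 16397 rows with a mouse gene identifier of their own. They comprise Adgre1, which encodes the surface marker F4/80, Cd68, Csf1r, the 3 chains of complement C1q (C1qa, C1qb and C1qc), the scavenger and lectin-like receptors Mrc1, Cd163 and Lyve1, and Arg1, which encodes arginase 1. The study used 4-NQO, a DNA-damaging compound that produces tongue carcinomas in mice, and stained its own tissue for F4/80 and for CD163 as a marker of M2 macrophages.

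The samples were 26 RNA-seq libraries from fixed, paraffin-embedded tongues of male CBA mice, an inbred strain. Laser microdissection separated the epithelium from the stroma and muscle beneath it, on regions mapped by a pathologist. Each compartment had 3 libraries of normal mucosa, 3 of hyperplasia, 4 of dysplasia and 3 of tumor, spread over 2 sequencing runs. The normal mucosa came from mice aged 16 to 24 weeks and the tumors from mice aged 28 to 32 weeks, with hyperplasia at 20 to 32 and dysplasia at 16 to 32 weeks. Whether mice with normal mucosa had received 4-NQO is not given by the labels, so lesion, exposure and, between normal and tumor, age cannot be told apart. The labels call libraries of a group biological replicates without naming the animal, so the p-values measure the spread between these samples.

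Values are the authors' log2(TPM + 1), where TPM is a relative abundance scaled for transcript length, so levels may be compared between genes. A difference is a log2 difference ± SE from limma, is smaller on this scale than in TPM for genes with low values, and was called at an adjusted p under 0.05 over all genes tested. All 10 genes reached a TPM of 1 in the minimum of 3 libraries that each fit required. Unless stated, counts at an unadjusted p under 0.05 are given without the share of all genes at that level. They are not read as an excess. In bulk tissue, fewer cells of a type and less RNA per cell cannot be told apart. The dissection separated the compartments in part, with 9 of 9 keratinocyte markers higher in epithelium and 7 of 7 fibroblast and 7 of 7 muscle markers lower. Keratinocyte markers were still present in stroma. They summed there to 2580 to 4160 TPM in normal mucosa and 158 to 1251 in hyperplasia. In dysplasia the sum was 268 to 5890 TPM and in tumor 726 to 5085. In 3 stroma libraries (hyperplasia 1, dysplasia 2 and normal 1) Lars2, March6 and D17H6S53E held 86.0%, 53.4% and 47.4% of the TPM, against a median of 0.953% over all libraries, and 9382 genes were listed at 0 in the first of these. These are called dominated libraries below, and counts of members in the comparisons that use stroma are also given without them.

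As background, macrophages arise from embryonic precursors or from blood monocytes and depend on signals through the receptor CSF1R, whose ligands are CSF1 and IL-34. Resident macrophages make much of the body's C1q, the protein that starts the classical complement pathway and tags debris for uptake. High MRC1, CD163 and, in mice, ARG1 are the usual signs of the alternatively activated or M2 state. Some of the 10 genes are also used by other cells: LYVE1 is made by lymphatic endothelium and ARG1 by keratinocytes of stratified epithelia.

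In stroma the C1q chains were the most abundant members. The median over 13 stroma libraries was 4.56 for C1qa, 4.22 for C1qc and 4.17 for C1qb, followed by Csf1r at 3.77, Cd68 at 3.41, Lyve1 at 3.29, Mrc1 at 3.25 and Cd163 at 2.91. Adgre1 at 2.04 and Arg1 at 1.78 were lowest. Neighbours in this order lay well within the spread of the libraries, whose SD was 0.82 for Lyve1 and between 1.08 and 2.14 for the others. The order in epithelium was different. Arg1 led with a median of 6.13, followed by Cd68 at 3.15, C1qa at 2.60, C1qc at 2.56, Csf1r at 2.28 and C1qb at 1.73. Mrc1 at 1.08, Adgre1 at 0.99, Cd163 at 0.57 and Lyve1 at 0.54 were near or below a TPM of 1, and the gap between Arg1 and the next gene was larger than the SD of either (0.76 and 0.90).

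**Figure D1:**
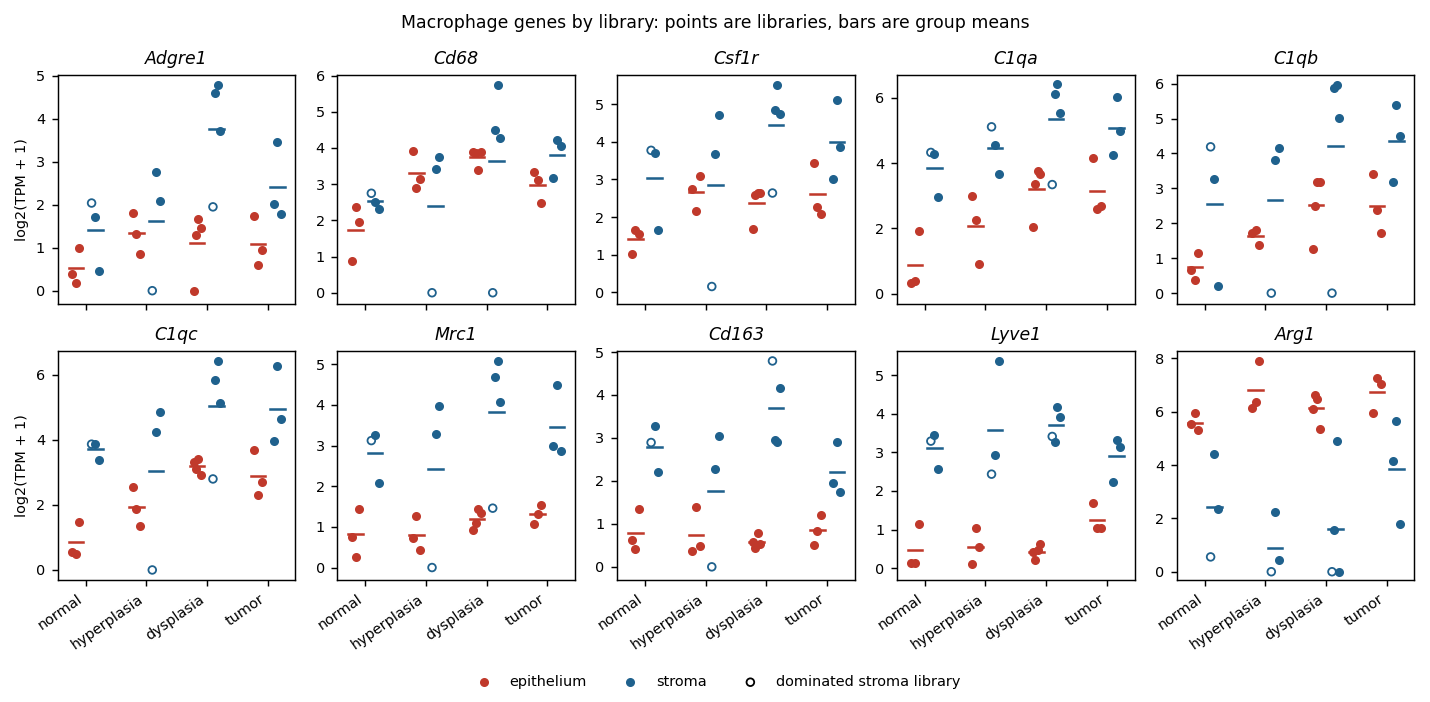
Level of each of the 10 macrophage genes in log2(TPM + 1) (vertical axis) by stage (horizontal axis), with a point for each library, bars for group means, epithelium in red and stroma in blue. Open circles are the 3 dominated stroma libraries, several of which lie at 0. The scavenger receptor genes stay low in epithelium at every stage, the C1q genes and Cd68 lie higher in epithelium of dysplasia than of normal mucosa, and Arg1 is high in epithelium.

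Epithelium was compared with stroma within 13 pairs that share stage, sample code number, age and run. Of the 10 genes, 8 were lower in epithelium, 1 was higher and Cd68 did not pass the test. Over all 15499 genes tested, 29.5% were called, 10.8% lower and 18.7% higher in epithelium. The median difference of the 10 genes was -1.73, against 0.16 over all genes.

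The receptors of M2 macrophages and Lyve1 were lower in epithelium. Lyve1, a hyaluronan receptor, ranged from 0.11 to 1.68 in epithelium (median 0.54) and from 2.23 to 5.37 in stroma (median 3.29), so the compartments did not overlap. It was lower in epithelium in 13 of 13 pairs, by -2.64 ± 0.28 (limma adjusted p = 2.98e-07). Mrc1, the mannose receptor, ranged from 0.25 to 1.54 in epithelium and from 0 to 5.08 in stroma, with a median of 3.25 there. The difference was -2.09 ± 0.34 (limma adjusted p = 8.56e-05), with 12 of 13 pairs lower. Cd163, the receptor that clears haemoglobin bound to haptoglobin, ranged from 0.37 to 1.39 in epithelium and from 0 to 4.79 in stroma. It was lower in 12 of 13 pairs, by -1.87 ± 0.28 (limma adjusted p = 3.05e-05). The 1 pair that went the other way for Mrc1 and Cd163 was that of hyperplasia stroma 1, a dominated library in which both genes were listed at 0. Among all genes tested, 6.63% were lower in epithelium in at least 12 of 13 pairs, as these 3 genes, Adgre1 and C1qa were.

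The C1q chains and the macrophage identity genes were also lower in epithelium. C1qa ranged from 0.32 to 4.15 in epithelium (median 2.60) and from 2.97 to 6.40 in stroma, and was lower in 13 of 13 pairs by -2.36 ± 0.26 (limma adjusted p = 5.45e-07). C1qc differed by -1.97 ± 0.41 (limma adjusted p = 0.000899) and C1qb by -1.60 ± 0.41 (limma adjusted p = 0.00517), with 11 and 10 of 13 pairs lower. Adgre1, an adhesion receptor, differed by -1.29 ± 0.28 (limma adjusted p = 0.00139, 12 pairs lower). Csf1r, the receptor for CSF1, differed by -1.31 ± 0.35 (limma adjusted p = 0.00677, 11 pairs lower). With a pseudocount of 0.1 in place of 1 the calls of C1qb (-1.45, adjusted p = 0.161) and Csf1r (-1.35, adjusted p = 0.0728) were lost.

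Cd68, a lysosomal membrane protein of phagocytes, had a median of 3.15 in epithelium and 3.41 in stroma. Its difference was -0.14 ± 0.43 (limma adjusted p = 0.832), although it was lower in epithelium in 10 of 13 pairs. The 3 pairs in which Cd68 was higher in epithelium included those of hyperplasia stroma 1 and dysplasia stroma 2, dominated libraries with Cd68 listed at 0. Without the 3 dominated libraries the difference was -0.70 ± 0.20 (limma adjusted p = 0.0112), and all 10 genes were called, 9 of them lower in epithelium. In those 10 pairs C1qb differed by -1.97, C1qc by -2.57 and Mrc1 by -2.51. Calls over all genes rose as well without the dominated libraries, from 4577 to 5818, so a gain in calls was not particular to these genes.

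Arg1, the enzyme that splits arginine into ornithine and urea, went the opposite way. In epithelium it lay between 5.31 and 7.89, or 38.6 to 236.7 TPM. In stroma it lay between 0 and 5.65, with 3 of 13 libraries listed at 0 and a median of 1.78. It was higher in epithelium in 13 of 13 pairs, by 4.12 ± 0.48 (limma adjusted p = 1.41e-06). The smallest pair differences were 0.315 in tumor and 0.46 in dysplasia, and the largest was 7.46 in hyperplasia. Of all genes tested, 12.6% were higher in epithelium in at least 12 of 13 pairs. In the mean over pairs the Arg1 difference was 4.62 in run 1 and 3.59 in run 2. For the 8 genes lower in epithelium the run means ranged from -2.69 to -1.57 in run 1 and from -2.68 to -0.86 in run 2, all in the same direction.

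**Figure D2:**
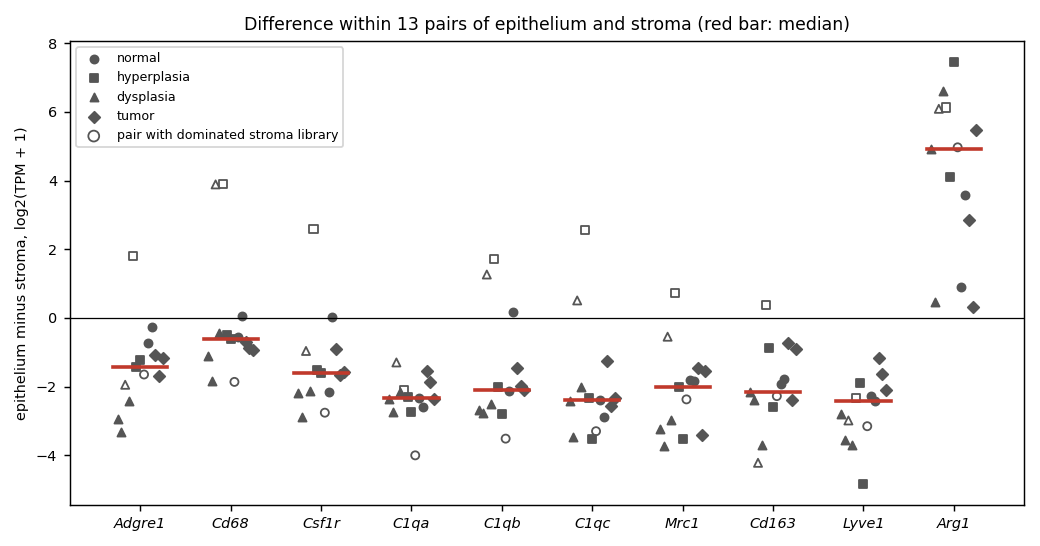
Epithelium minus stroma in log2(TPM + 1) (vertical axis) for each macrophage gene (horizontal axis) in 13 pairs, with marker shape for stage, open markers for pairs whose stroma library is dominated and a red bar at the median. Lyve1 and C1qa are below 0 and Arg1 above 0 in 13 of 13 pairs, and the open markers hold most of the pairs in which the other genes are above 0.

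Genes that accompany these members were read in the same pairs. Of 35 other macrophage and monocyte genes, 31 were in the table and tested, of which 16 were lower and 2 higher in epithelium, with a median of -0.88. Without the dominated libraries, where calls over all genes also rose, 21 were lower and 2 higher. The lower ones included Pf4, a chemokine of resident macrophages (-1.76 ± 0.29), Laptm5, a lysosomal protein of blood cells (-1.38 ± 0.27), and Ccr2, the receptor that brings in monocytes (-1.30 ± 0.28). The higher ones included the transcription factor Maf (1.05 ± 0.28), which macrophages share with other cells. The 2 ligands of CSF1R were called in opposite directions, with Csf1 lower in epithelium (-1.25 ± 0.30, limma adjusted p = 0.00309) and Il34 higher (1.07 ± 0.33, limma adjusted p = 0.0169). IL-34 is the ligand that epidermal keratinocytes are known to make.

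Of 8 further complement genes tested, 5 were lower in epithelium and none higher, among them C3, the central component (-3.43 ± 0.39), Serping1, the inhibitor of the C1 complex (-3.24 ± 0.41), and C4b (-1.50 ± 0.32). Genes of activation states were mixed. Only Il6 (-0.54 ± 0.19) was called among 15 genes of classical activation, and that call was lost without the dominated libraries (-0.51, adjusted p = 0.0837). Among 11 tested genes of alternative activation, 3 were higher in epithelium (Klf4 at 2.52, Il4ra at 1.46 and Stat6 at 0.99) and 2 lower (Tgm2 at -1.98 and Irf4 at -0.74). Lymphatic endothelium markers were lower in epithelium in 5 of 6 cases, with Mmrn1 at -2.10, Flt4 at -2.06 and Prox1 at -1.19. Their part in the Lyve1 difference was not tested. Over libraries, their summed TPM ran from 8.22 to 49.4 in epithelium and from 4.03 to 105.0 in stroma.

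Across stages members were called in epithelium only, where the clearest change was in the C1q chains and Cd68. SEs in stroma were larger, so changes of this size could be missed there. In simulated data for tumor against normal, 0% of log2 differences of 2 were recovered in stroma and 46% in epithelium. The 3 C1q genes lie side by side on the minus strand of chromosome 4 (GRCm38), C1qb at 136880129 to 136886187, C1qc at 136889804 to 136893065 and C1qa at 136895917 to 136898803. Their products combine into the C1q molecule. RefSeq promoters of GRCm38.p6, 300 bases that span the gene start, were matched for 5 of the 10 genes by symbol (C1qb, C1qc, Cd163, Cd68 and Mrc1). Those of C1qb and C1qc are shown because both genes moved together in these libraries, and that of Mrc1 because it is the M2 receptor gene with most matches to the motif searched. Capitals mark GAGGAA or its reverse complement TTCCTC, a core sequence bound by PU.1, the factor that directs myeloid development.
C1qb, chr4:136886151-136886450, minus strand: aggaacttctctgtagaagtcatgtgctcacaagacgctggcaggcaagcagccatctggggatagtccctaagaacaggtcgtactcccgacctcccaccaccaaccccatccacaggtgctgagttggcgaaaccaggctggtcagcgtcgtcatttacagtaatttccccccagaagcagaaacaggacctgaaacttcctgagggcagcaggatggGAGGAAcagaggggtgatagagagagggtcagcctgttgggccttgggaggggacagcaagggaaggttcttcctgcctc
C1qc, chr4:136892865-136893164, minus strand: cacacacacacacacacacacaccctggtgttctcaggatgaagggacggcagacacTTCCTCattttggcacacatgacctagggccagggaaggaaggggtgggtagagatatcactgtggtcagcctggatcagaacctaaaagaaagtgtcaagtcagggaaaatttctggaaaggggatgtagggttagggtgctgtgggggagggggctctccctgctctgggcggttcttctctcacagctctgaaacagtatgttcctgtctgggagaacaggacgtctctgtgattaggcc
Mrc1, chr2:14229164-14229463, plus strand: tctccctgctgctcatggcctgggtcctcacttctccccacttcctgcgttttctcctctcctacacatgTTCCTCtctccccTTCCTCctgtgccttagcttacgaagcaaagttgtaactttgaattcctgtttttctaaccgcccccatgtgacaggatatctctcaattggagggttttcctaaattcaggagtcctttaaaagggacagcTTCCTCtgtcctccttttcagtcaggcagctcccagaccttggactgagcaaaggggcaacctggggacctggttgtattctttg
The C1qb promoter has 1 match, starting at position -30 from the RefSeq gene start. The C1qc promoter has 1 at -193 on the opposite strand, and the Mrc1 promoter has 3 on the opposite strand. The RefSeq starts differ from those of the gene intervals given above. On its strand the C1qc interval starts at 136893065, inside the window of 136892865 to 136893164, so -193 does not hold for that start. A match to this motif on either strand occurred in 28.3% of 32851 promoters of the same length, and in 4 of these 5, the exception being Cd163. A second motif, TGCTGAC, which MAF binds, occurred in 4.67% of all promoters and in 0 of the 5, on either strand. A match is only a description of these letters.

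C1qc was low in normal epithelium, at 0.56, 0.50 and 1.48 in libraries 1 to 3, and 2.56, 1.87 and 1.34 in hyperplasia. In dysplasia it was 3.40, 3.30, 3.09 and 2.93, and in tumor 2.69, 3.68 and 2.31. Every dysplasia library was above every normal and every hyperplasia library, and every tumor library was above every normal library. In TPM the normal libraries were at 0.41 to 1.78 and the dysplasia libraries at 6.61 to 9.55. Dysplasia exceeded normal by 2.37 ± 0.42 (limma adjusted p = 0.00991), where 0.467% of 14126 genes were called and 0.198% were called higher. C1qc was also the 1 member called in the test of any difference among the 4 stages (F = 12.66, limma adjusted p = 0.0412), which 0.163% of genes passed. That call was lost without any of normal epithelium 1 and 2, dysplasia epithelium 1, 3 and 4 and tumor epithelium 2 and 3, where the adjusted p lay between 0.0513 and 0.401.

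Cd68 was the second member called between dysplasia and normal epithelium. It was 0.88, 2.38 and 1.95 in normal, 3.91, 2.90 and 3.15 in hyperplasia, 3.39, 3.89, 3.85 and 3.89 in dysplasia, and 2.47, 3.33 and 3.12 in tumor. All libraries of the 3 lesion stages were above the highest normal library. The tumor libraries were all below the dysplasia libraries. Dysplasia exceeded normal by 2.07 ± 0.41 (limma adjusted p = 0.0217). The tumor difference from normal was 1.35 ± 0.45 (limma adjusted p = 0.543), and the difference of tumor from dysplasia, -0.73 ± 0.41, did not pass either (limma adjusted p = 1.00).

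C1qa and C1qb did not pass the test in dysplasia. C1qa was 0.32, 0.38 and 1.93 in normal epithelium, 3.01, 2.26 and 0.93 in hyperplasia, 3.75, 2.04, 3.35 and 3.66 in dysplasia and 2.69, 4.15 and 2.60 in tumor. Dysplasia and tumor libraries all lay above the normal ones. Its differences from normal were 2.33 ± 0.56 in dysplasia (limma adjusted p = 0.0614) and 2.29 ± 0.61 in tumor (limma adjusted p = 0.236). C1qb was 0.67, 0.39 and 1.14 in normal epithelium, 1.73, 1.80 and 1.37 in hyperplasia, 3.19, 1.26, 2.50 and 3.18 in dysplasia and 1.73, 3.40 and 2.38 in tumor. Libraries of each lesion stage were above the normal ones, with a difference of 1.80 ± 0.47 in dysplasia (limma adjusted p = 0.102).

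The calls rested on few libraries. The C1qc difference between dysplasia and normal missed the threshold without dysplasia epithelium 1 (2.26, adjusted p = 0.0597), normal epithelium 1 (2.19, adjusted p = 0.117) or normal epithelium 2 (2.16, adjusted p = 0.0680). That of Cd68 missed it without dysplasia epithelium 1 (2.14, adjusted p = 0.0733), dysplasia epithelium 4 (2.09, adjusted p = 0.0662) or normal epithelium 1 (1.59, adjusted p = 0.249). Without dysplasia epithelium 2, in which C1qa, C1qb and Csf1r were lowest of their group, C1qa (2.83, adjusted p = 0.00182) and C1qb (2.32, adjusted p = 0.00162) were called as well. C1qa was also called without normal epithelium 3 (3.12, adjusted p = 0.0200). Within run 1 and run 2 the dysplasia differences were 1.77 and 2.59 for C1qc, 1.67 and 2.26 for Cd68, 1.62 and 2.50 for C1qa and 1.70 and 1.69 for C1qb.

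Csf1r was 1.01, 1.67 and 1.54 in normal epithelium and 2.65, 1.68, 2.60 and 2.63 in dysplasia. It lay between 2.17 and 3.10 in hyperplasia and between 2.09 and 3.44 in tumor. Each lesion stage was above all normal libraries, but in dysplasia only narrowly, with dysplasia 2 at 1.676 and normal 2 at 1.667. The difference in dysplasia, 1.00 ± 0.42, did not pass (limma adjusted p = 0.440). Adgre1 was low throughout, between 0.18 and 0.99 in normal epithelium and between 0 and 1.81 in the lesions, with overlapping groups. In all, 5 of 10 members had every dysplasia library above every normal library (C1qa, C1qb, C1qc, Cd68 and Csf1r), against 3.1% of all genes tested.

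The M2 receptor genes gave no such order in epithelium. Cd163 was 0.61, 0.42 and 1.36 in normal epithelium, 0.37, 1.39 and 0.47 in hyperplasia, 0.79, 0.57, 0.45 and 0.53 in dysplasia, and 1.20, 0.51 and 0.83 in tumor. Its groups overlapped at every stage, and dysplasia differed from normal by -0.29. Its 3 highest values (normal 3, hyperplasia 2 and tumor 1) came from the 3 epithelium libraries with the fewest genes listed at 0 (25, 16 and 27, against 120 to 2348 in the other libraries of epithelium), and the part of this in its level was not tested. Mrc1 differed from normal by -0.13 in hyperplasia, 0.32 in dysplasia and 0.37 in tumor. Lyve1 was at most 0.63 in dysplasia epithelium and 1.05, 1.68 and 1.03 in tumor, so that every tumor library was above every dysplasia library, as for 2.79% of all genes tested. The difference between tumor and dysplasia was 0.79 ± 0.38 (limma adjusted p = 1.00). In the same comparison 5 of 5 lymphatic markers tested (median 0.55), 7 of 7 fibroblast markers (median 1.36) and 7 of 7 skeletal muscle markers (median 3.17) had a positive difference. None of these markers was called by limma, 0, 5 and 6 of them had an unadjusted p under 0.05, and their part in the Lyve1 difference was not tested.

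Arg1 in epithelium was 5.52, 5.95 and 5.31 in normal, 6.13, 6.36 and 7.89 in hyperplasia, 6.48, 6.09, 6.61 and 5.35 in dysplasia, and 7.02, 5.97 and 7.26 in tumor. All hyperplasia and tumor libraries were above the normal ones, tumor 2 by a margin of less than 0.02, while dysplasia overlapped with normal. The differences from normal were 0.98, 0.43 and 0.94, none of them past the test. Within runs the tumor difference of Arg1 was 1.84 in run 1 and 0.23 in run 2.

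Between hyperplasia and normal epithelium, 0 of the 10 genes were called by limma and 3 had an unadjusted p under 0.05, where 0.0354% of all genes were called. Cd68 had the smallest p, with a difference of 1.69 ± 0.45 (limma adjusted p = 0.301). Arg1, C1qb, Cd68 and Csf1r had all hyperplasia libraries above all normal ones, as 3.74% of all genes did. Between tumor and normal epithelium, 0 were called and 5 had an unadjusted p under 0.05, where 0.0496% of all genes were called. The smallest p was that of C1qc, with a difference of 2.12 ± 0.45 (limma adjusted p = 0.0924), which was called without normal epithelium 3 (2.74, adjusted p = 0.0444). Within run 1 and run 2, which held 2 and 1 of the tumor libraries, the tumor differences were 1.03 and 3.15 for C1qc, 0.72 and 3.80 for C1qa and 0.91 and 2.87 for C1qb. In tumor, Arg1, Cd68, Csf1r and the 3 C1q chains were above all normal libraries, as 3.65% of genes were.

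No member passed the test between neighbouring lesion stages in epithelium, although the libraries of single members did not overlap. Between dysplasia and hyperplasia epithelium 0 members were called by limma and 1 had an unadjusted p under 0.05, where 0% of all genes were called. C1qc gave the smallest p (1.22 ± 0.42, limma adjusted p = 1.00), with every dysplasia library above every hyperplasia library, as for 0.566% of genes. Between tumor and dysplasia epithelium 0 members were called by limma and 0 had an unadjusted p under 0.05, where again 0% of genes were called. Cd68 was the member with every tumor library below every dysplasia library, as for 0.984% of genes.

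**Figure D3:**
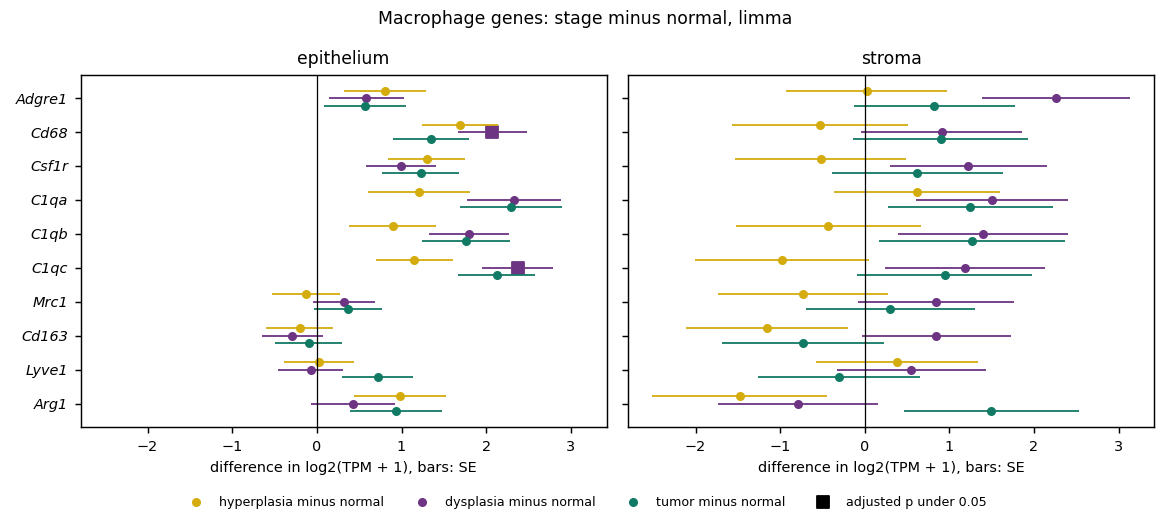
Difference of each lesion stage from normal in log2(TPM + 1) (horizontal axis, bars are SE) for each macrophage gene (vertical axis), in epithelium (left) and stroma (right). Squares mark an adjusted p under 0.05, which C1qc and Cd68 reach in dysplasia epithelium, and SEs are larger in stroma.

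Other macrophage genes were read beside the dysplasia result. Of 27 tested in epithelium, 0 were called by limma in dysplasia against normal, 10 had an unadjusted p under 0.05 and 23 had a positive difference, with a median of 0.65 against 0.02 over all genes. The summed TPM of the 31 in the table was 124.2 to 199.7 in normal epithelium and 229.8 to 669.8 in dysplasia, without overlap. Marker lists of other cells were read in the same comparison. Dendritic and Langerhans cell markers, of which 0 of 10 were called and 2 had an unadjusted p under 0.05, summed to 48.1 to 82.4 TPM in normal epithelium and 90.7 to 196.3 in dysplasia. Of 6 neutrophil markers tested 2 were called, S100a8 (6.24 ± 1.37) and S100a9 (6.69 ± 1.41), which keratinocytes also make, and the summed TPM of the 9 in the table was 9.26 to 42.5 in normal and 23.1 to 8595 in dysplasia. Fibroblast markers, as a measure of stroma in the epithelial cuts, summed to 160.9 to 215.9 TPM in normal and 72.5 to 161.7 in dysplasia, with 0 of 7 called and 3 at an unadjusted p under 0.05. Skeletal muscle markers had a negative difference in 7 of 7, with a median of -2.32, 0 called and 4 at an unadjusted p under 0.05, and summed to 10.7 to 741.4 TPM in normal and 10.5 to 42.8 in dysplasia. Of 9 keratinocyte markers 0 were called and 3 had an unadjusted p under 0.05 (median -0.17, 13728 to 27644 TPM in normal and 6576 to 19502 in dysplasia). Of 5 lymphatic markers tested 0 were called and 2 had an unadjusted p under 0.05 (median -0.23). Blood endothelium markers had a positive difference in 5 of 7 (median 0.27), with 0 called and 1 at an unadjusted p under 0.05. They summed to 16.7 to 52.9 TPM in normal and 29.0 to 117.7 in dysplasia. T cell markers had 0 of 7 called and 0 at an unadjusted p under 0.05. No list named here had a marker listed at 0 in every library of a group, and the part of these cells in the C1q and Cd68 differences was not tested.

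In stroma no member was called in any comparison, and the spread between libraries was wide. Adgre1, the F4/80 gene, was 2.04, 1.72 and 0.46 in normal stroma, 0, 2.75 and 2.09 in hyperplasia, 4.78, 1.95, 3.71 and 4.60 in dysplasia, and 2.01, 3.45 and 1.78 in tumor. Of the dysplasia libraries, 3 were above all libraries of the other stages and dysplasia 2, a dominated library, was not. Dysplasia exceeded normal by 2.26 ± 0.88 (limma adjusted p = 0.998). By limma 0 of 10 members were called and 1 had an unadjusted p under 0.05, where 0.0403% of genes were called. Without the 3 dominated libraries 0 were called and 7 had an unadjusted p under 0.05, with C1qb at 3.87 ± 0.87 (limma adjusted p = 0.0506) and Adgre1 at 3.35 ± 0.79 (limma adjusted p = 0.0692). In that fit the median difference of the members was 2.36, against 0.29 over all genes. The share of all genes at an unadjusted p under 0.05 in that fit is not given, so the 7 members are not read as an excess.

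The C1q chains in stroma of dysplasia libraries 1, 3 and 4 reached 6.40, 5.52 and 6.10 for C1qa, 5.96, 5.03 and 5.87 for C1qb and 6.41, 5.11 and 5.83 for C1qc. In normal stroma C1qa was 4.33, 4.27 and 2.97, C1qb 4.19, 3.26 and 0.22 and C1qc 3.86, 3.86 and 3.38. Normal stroma 3 was low in C1qb but not in C1qc. In dysplasia stroma 2, C1qb was listed at 0 while C1qa and C1qc were 3.34 and 2.79, and in hyperplasia stroma 1 C1qa was 5.11 while C1qb, C1qc and 5 more members that include Cd68 and Arg1 were listed at 0. In normal stroma 1, the remaining dominated library, the 3 chains lay between 3.86 and 4.33.

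Between hyperplasia and normal stroma, 0 members were called by limma and 0 had an unadjusted p under 0.05, where 0.00672% of genes were called. The smallest p was that of Arg1 (-1.48 ± 1.03, limma adjusted p = 0.704), and the median over all genes was itself at -0.72. Without the dominated libraries it was at 0.32 and that of the members at 1.31, with 0 members called and 1 at an unadjusted p under 0.05. Between dysplasia and hyperplasia stroma 0 were called and 3 had an unadjusted p under 0.05, where 0% of genes were called, with the smallest p for Adgre1 (2.24 ± 0.88, limma adjusted p = 0.637). The median difference of the members there was 1.66, where that over all genes was itself at 0.65. Without the dominated libraries the members' median was 0.88, with 0 called and 2 at an unadjusted p under 0.05.

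Between tumor and normal stroma 0 members were called by limma and 0 had an unadjusted p under 0.05, where 0.0806% of genes were called. Cd68 was 2.75, 2.52 and 2.32 in normal stroma and 3.18, 4.22 and 4.05 in tumor, and C1qc was 3.95, 6.25 and 4.64 in tumor. For these 2 genes all tumor libraries were above all normal ones, as for 4.98% of genes. Cd163 had all tumor libraries (1.95, 2.91 and 1.75) below all dysplasia libraries (2.92, 4.79, 4.16 and 2.95), as for 0.786% of genes, with tumor 2 and dysplasia 1 apart by less than 0.01. The difference was -1.57 ± 0.88 (limma adjusted p = 1.00). The M2 receptor genes Mrc1 and Cd163 and Lyve1 differed between tumor and normal stroma by 0.30, -0.73 and -0.30.

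Arg1 in stroma was 0.56, 4.40 and 2.36 in normal, 0, 2.24 and 0.43 in hyperplasia, 4.89, 0, 0 and 1.57 in dysplasia and 4.17, 5.65 and 1.78 in tumor. The groups overlapped. It had the smallest p between tumor and normal (1.50 ± 1.03, limma adjusted p = 1.00), between tumor and dysplasia (2.29 ± 0.95, limma adjusted p = 1.00) and over any stage (F = 3.32, limma adjusted p = 0.889). In the last 2 comparisons 0.141% and 0.195% of genes were called, and 0 of 10 members, with 1 and 2 at an unadjusted p under 0.05. Without the dominated libraries 0 members were called in each of these 3 comparisons, and the smallest p was that of other members. It was that of C1qb between tumor and normal (2.60 ± 0.87, limma adjusted p = 0.806) and over any stage (F = 6.69, limma adjusted p = 0.152), and that of Adgre1 between tumor and dysplasia (-1.95 ± 0.70, limma adjusted p = 0.781). In these fits 1, 4 and 2 members had an unadjusted p under 0.05. The members' median difference moved from 0.86 to 1.38 between tumor and normal and from -0.39 to -1.03 between tumor and dysplasia. The Arg1 difference between tumor and normal fell to 0.81 without these libraries. With them it changed sign with age as a covariate (-0.51), and that between hyperplasia and normal without normal stroma 2 (0.16). Of the other lists, 4 genes were called between tumor and normal stroma, from 3 lists. Spp1, osteopontin, exceeded normal by 4.33 ± 0.99 (limma adjusted p = 0.0465), Il1b, interleukin 1 beta, by 4.52 ± 1.01 (limma adjusted p = 0.0322), S100a8 by 7.30 ± 0.98 and S100a9 by 6.63 ± 1.00. They were 1 of 30 other macrophage genes, 1 of 14 genes of classical activation and 2 of 7 neutrophil markers tested there, and these 4 genes were also called without the dominated libraries.

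Whether the change from normal to tumor differed between compartments was tested in the pairs. By limma 0 of 15499 genes were called (0%), 194 had an unadjusted p under 0.05, and of the 10 members 0 did, with or without the dominated libraries. C1qa had the smallest p among the members, with an epithelial change larger by 1.05 ± 0.76 (limma adjusted p = 1.00). The tumor changes seen in epithelium are therefore not shown to differ from those in stroma. Whether the dysplasia changes, where C1qc and Cd68 were called in epithelium, differ between compartments was not tested.

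The members fell into groups by how they varied over libraries. These rank correlations (Spearman's rho over 13 libraries of a compartment) are descriptions, since libraries share runs, stages and the dominance by 3 genes. In epithelium C1qa correlated with C1qb at 0.93 and with C1qc at 0.87, and Adgre1 with C1qa at 0.79. Cd163 correlated with Mrc1 at 0.74 and Lyve1 at 0.62, but with Cd68 at -0.49 and with C1qa at -0.09. Normal 3, hyperplasia 2 and tumor 1, the epithelium libraries with the fewest genes listed at 0, held the 3 highest Cd163 values. Mrc1 in them was 1.45, 1.28 and 1.54 and Lyve1 1.15, 1.04 and 1.05. These levels were low, but all were above the medians over epithelium libraries, 1.08 for Mrc1 and 0.54 for Lyve1. Dysplasia 1 also had Mrc1 at 1.45, and tumor 2 had Lyve1 at 1.68. The part of this library trait in these correlations was not tested. In stroma Cd68 correlated with C1qc at 0.98, C1qb with Csf1r at 0.96 and Mrc1 with C1qc at 0.92. There Mrc1 ranked with Adgre1, Cd68 and C1q, whereas Cd163 ranked with Lyve1 (0.81) and not with C1qa (-0.03). Arg1 was at most 0.40 with any other member in stroma and 0.42 in epithelium.

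**Figure D4:**
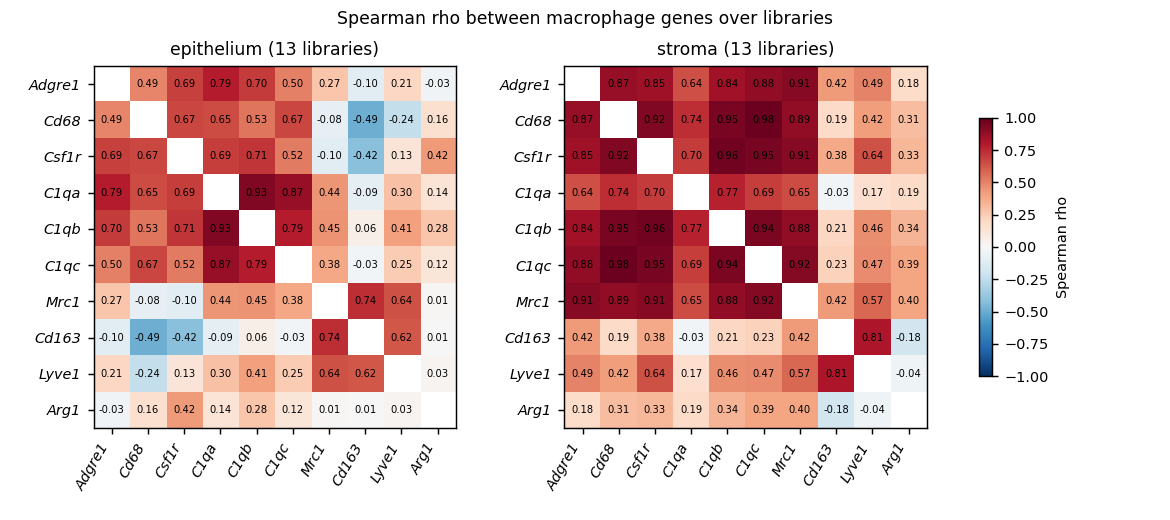
Spearman rho between each pair of macrophage genes (both axes) over 13 epithelium libraries (left) and 13 stroma libraries (right), on a colour scale from -1 to 1 with the value printed in each cell. Mrc1 correlates with Cd163 at 0.74 in epithelium and with C1qc at 0.92 in stroma, and Arg1 stands apart from the other genes in both.

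Over all 26 libraries and 12912 genes, which mix both compartments, the genes most like each member in rank were as follows. Lyve1 was most like Rhoj, Cxcl12 and Lama4 (rho 0.95, 0.95 and 0.94), and Cd163 most like Reln, Plce1 and Gypc (0.94, 0.94 and 0.93), of which Reln was among the lymphatic endothelium markers. Mrc1 was most like Rassf2, Pi16 and Syne1 (0.95, 0.94 and 0.93). C1qa was most like Ccr2, Fbln1 and Wisp2 (0.90, 0.89 and 0.89), C1qb most like Cxcr4, Plod2 and Steap4 (0.93, 0.92 and 0.91), and C1qc most like Hexa, Serping1 and Lgmn (0.92, 0.92 and 0.91). Csf1r was most like Adam19, Hexa and Arhgdib (0.92, 0.92 and 0.91), Cd68 most like Dok3, Apobec1 and Lgals9 (0.94, 0.92 and 0.90), and Adgre1 most like Tifab, Fgd2 and Gfpt2 (0.94, 0.93 and 0.92). Arg1 was most like Dusp5, Il1f6 and Pla2g4d (0.94, 0.94 and 0.94). The first of the lists holds Cxcl12, which was lower in epithelium by -3.05 ± 0.26, and none of the 30 places was taken by another of the 10 members.

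The remaining genes lie apart in the genome (GRCm38): Adgre1 on chromosome 17 from 57358691 to 57483527, Cd68 on 11 from 69664213 to 69666153, Csf1r on 18 from 61100598 to 61132149, and Mrc1 on 2 from 14229392 to 14332057. Cd163 is on chromosome 6 from 124304656 to 124330527, Lyve1 on 7 from 110850607 to 110863239 and Arg1 on 10 from 24915221 to 24927484. Each is listed as a single-copy ortholog of its human counterpart.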

How the data were processed

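Per the labels' protocols, RNA came from laser-dissected sections of paraffin-embedded tongue. The submitters' processing notes name the aligner STAR 2.5.1b, the quantifiers Salmon 0.9.1 and HTSeq 0.10.0, the trimmer Trimmomatic 0.36, bcl2fastq 2.20, FastQC 0.11.5 and SAMtools 1.6 with build GRCm38.p6, and do not say how they were combined. The table the authors deposited holds log2 values of TPM plus a pseudocount of 1, a scale read from the values, since undoing it gave totals of 179645 to 895312 per library. TPM keeps no depth, so the depth is unknown and counting intervals are not given. The table has 18676 rows, of which the 16397 with a mouse identifier of their own were used, and 0 columns outside the 26 libraries.

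In R 4.3.3 with limma 3.58.1, stage and run were fitted within each compartment (14126 genes in epithelium and 14883 in stroma that reached a TPM of 1 in 3 or more libraries), and stage in the epithelium minus stroma differences of 13 pairs (15499 genes, averaged over the 4 stages). Moderation followed the mean level. Residual degrees of freedom were 8, 8 and 9 and prior ones 13.5, 71.8 and 12.9, so SEs in stroma come mostly from a spread shared across genes. P-values were two-sided and adjusted by Benjamini-Hochberg over every gene of a comparison and called under 0.05. Tested on simulated data, the fits recovered 46% of log2 differences of 2 and 97% of 4 for tumor against normal epithelium (14126 genes), 0% and 47% in stroma (14883 genes), and 90% and 100% for epithelium minus stroma (15499 genes). Pairs were formed from the sample code number, age and run and are not stated by the labels. Deviations of partners from their group means correlated between -0.12 and 0.60, with 7 of 13 over 0.1.

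The members, the other gene lists, the marker lists and the tests were chosen with earlier results of these data known. Differences with SE and adjusted p are given for members past the threshold or, where none passed, for the member with the smallest p, and for others where a result turns on them. Of other lists up to 4 genes with the smallest p are named, with further genes chosen after their values were seen. Alternatives changed the pseudocount, filter, scaling, rows, run and age terms, replicate block, moderation and libraries. Coordinates are from a GRCm38 annotation matched by identifier, and promoters are RefSeq's.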

Additional observations from a re-analysis of the deposited data

Results flagged for a closer look

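In groups of 4 libraries, the lowest or highest value was compared with the range of its group by Dixon's test at the 95% level, which chance passes in about 1 of 20 groups. Of 20 combinations of a gene and a dysplasia group, 3 passed. Cd68 in dysplasia epithelium 1 was 3.39, below the other 3 libraries at 3.85 to 3.89, and remained above every normal library. Csf1r in dysplasia epithelium 2 was 1.68, against 2.60 to 2.65 in the other 3. In the same library Adgre1 was listed at 0, and Lars2, March6 and D17H6S53E held 17.2% of the TPM, the largest share among the epithelium libraries. C1qb in dysplasia stroma 2 was listed at 0, against 5.03 to 5.96 in the other 3. That library is dominated by the same 3 genes (53.4%) and has 4637 genes listed at 0. The part of these shares in the values was not tested.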

How the results depend on the processing

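The count of 9 members called in epithelium minus stroma was 7 to 10 under 23 alternatives, and the 0 members called in each stroma comparison stayed 0 under all run. In epithelium, dysplasia against normal (2 called) gave 0 with the replicate block, 3 under quantile normalization, 3 with the stricter filter on TPM (7 members tested) and 0 to 4 leaving out single libraries. Any stage (1 called) gave 0 with age as a covariate, median centring, no filter, a pseudocount of 0.1, the replicate block or rescaling without the 3 dominant genes, 2 under quantile normalization, and 0 to 4 leaving out single libraries. Tumor against normal (0 called) gave 1 under quantile normalization and 0 to 1 leaving out single libraries. Arg1 in stroma reversed for tumor against normal with age as a covariate (-0.51) and for hyperplasia against normal without normal stroma 2 (0.16, where leaving out single libraries gave -2.39 to 0.16), neither being called in any fit. The cause of these changes was not tested.

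Replicate numbers of the titles do not pair the samples: same-numbered libraries correlated between -0.71 and 0.55 in epithelium (6 of 18 over 0.1) and -0.43 and 0.36 in stroma (4 of 18). With the replicate block, C1qc (2.50, adjusted p = 0.0640) and Cd68 (2.17, adjusted p = 0.0775) missed the threshold for dysplasia against normal epithelium, where 17 in place of 66 genes were called. Epithelium minus stroma without the block of pairs kept 9 called. Over all genes the counts ranged from 5 to 395 for dysplasia against normal epithelium (66), 0 to 221 for any stage in epithelium (23), 0 to 58 for tumor against normal epithelium (7), 0 to 30 for hyperplasia against normal epithelium (5) and 3312 to 5818 for epithelium minus stroma (4577). In stroma they ranged from 0 to 113 for any stage (29), 0 to 41 for dysplasia (6), 0 to 108 for hyperplasia (1) and 1 to 16 for tumor (12) against normal, and 0 to 26 for tumor against dysplasia (21). The unknown depth leaves values near 0 without a floor.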
